A study of Mus musculus with 6 samples.

Results

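The smooth muscle contractile genes are a set of 10: Cnn1, Actg2, Acta2, Tagln, Myh11, Myl9, Cald1, Tpm1, Tpm2 and Srf. Their members are all gene probes on the array whose transcript accession belongs to one of these genes, 17 probes of 39429, and each of the 10 genes has at least 1. The set was selected on earlier results of these data, the log2 differences between the Tug1 hairpin arrays and control, in which Cnn1 and Actg2 were among the lowest genes. The values of the members against control are therefore given as a description, with no test, and the difference between the 2 clones is the comparison tested here. Its size comes from the clone arrays, but its error in the fit over all 6 arrays also takes in the spread of the controls, and the fit of the clone arrays alone is given beside it. The cells were mouse podocytes, which cover the capillaries of the kidney's filter, immortalised with a temperature-sensitive SV40 T antigen. They were grown at 33 °C, then kept at 37 °C for 10 days to differentiate. All carried a pGIPZ lentiviral hairpin: a scrambled one in shControl, and one against the long noncoding RNA Tug1 in shTug1 clone 2 and shTug1 clone 3, each a single independent clone. Each group has 2 arrays (1 colour, Cy3), described as biological replicates, and their number limits the precision.

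Smooth muscle contracts when myosin filaments pull on thin filaments built of actin. Tropomyosin, calponin and caldesmon lie along the thin filament and set how myosin reaches it, and phosphorylation of the myosin regulatory light chain by myosin light chain kinase switches the motor on. Most genes of this apparatus are targets of serum response factor (SRF), which binds a DNA element called the CArG box and is driven by myocardin or by the actin-sensing myocardin-related factors. Podocyte foot processes are also built on a contractile actin network, and smooth muscle actin is widely used as a mesenchymal marker in kidney cells.

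The deposited intensities differ in scale between arrays. The 75th percentile over gene spots was between 324.3 and 363.3 in control, between 949.3 and 1055 on the arrays labelled clone 2 and between 569.2 and 831.6 on those labelled clone 3, whereas the brightest 1% of spots began at 65860 to 96440 on all 6. Values below are log2 intensity minus the array's own 75th percentile unless stated, and a bright probe with equal intensity everywhere is therefore lower on the clone arrays on this scale. The controls were hybridised on 1 slide and the 4 clone arrays on another, and in every comparison with control slide and hairpin cannot be told apart. Tug1 itself, by its brightest probe, read −2.88 and −2.49 in control, −1.86 and −1.88 for the pair labelled clone 2 and −3.10 and −3.23 for the pair labelled clone 3. The clone 2 label is thus not borne out by that probe. For clone 3 the probe was at −0.48 against control, where the median of all probes was −0.41. The other tested Tug1 probe (A_51_P119401) was not well above background in control (−6.21 and −6.38). It read −2.73 and −2.94 for clone 2, and −6.36 (not well above background) and −3.58 for clone 3. Neither label is thus clearly borne out by these probes, and each clone is given separately below. Of the podocyte markers listed, 8 of the 9 genes with a probe were well above background on all 6 arrays, and Podxl was not tested for lack of signal. The muscle genes Myh11, Des and Myocd were not well above background on both arrays of any group, while 8 of the 10 contractile genes had a probe well above background on all 6 arrays. Of the 39429 probes on the array, 19799 had that mark and a usable value on all 6. By gene, of 20659 with a symbol, 12331 besides Cnn1 had it by their brightest tested probe. Genes of other cell types had it too: 5 of 7 mesangial and pericyte, 4 of 6 fibroblast and 3 of 7 striated muscle markers. So did 2 of 4 endothelial, 2 of 4 tubular and 1 of 2 immune markers with a probe.

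**Figure D1:**
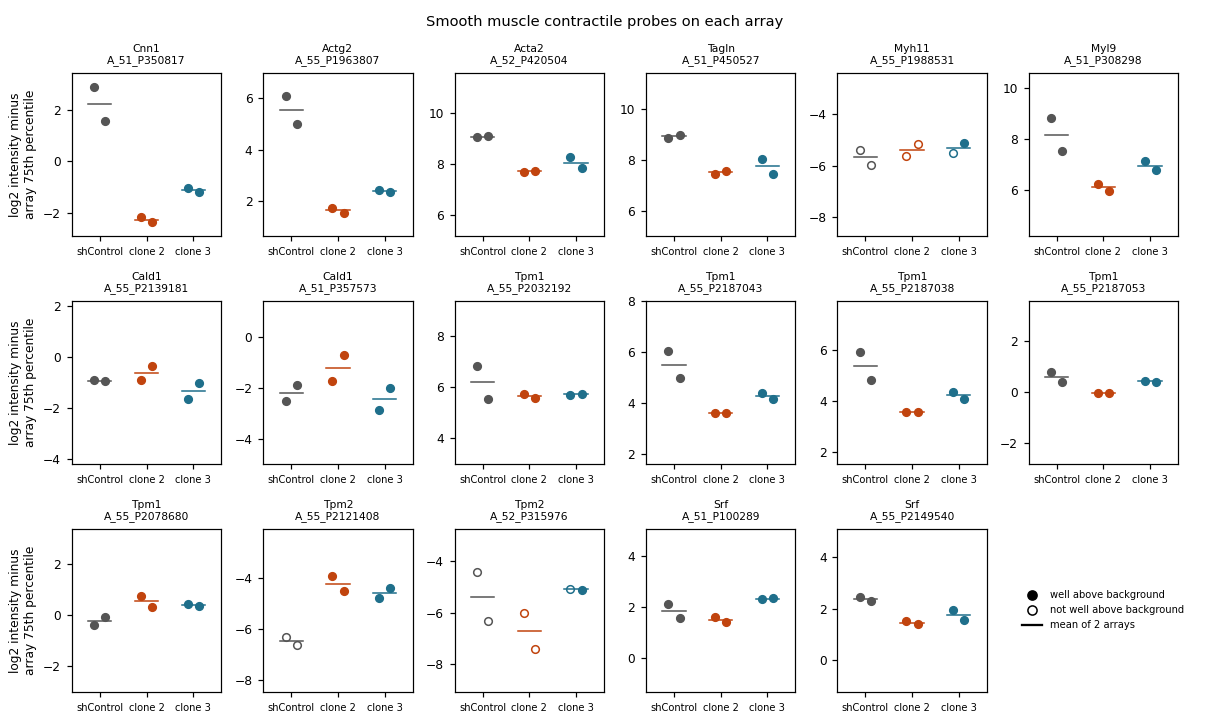
Log2 intensity minus the array's 75th percentile for each of the 17 probes (1 panel a probe, each panel spanning the same number of log2 units) in shControl, clone 2 and clone 3; points are arrays, filled where well above background, and lines are means of 2 arrays. The Cnn1 and Actg2 panels show the widest gaps, with controls at 1.57 or more for Cnn1 and clone arrays at −1.04 or less.

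The set did not move as a block. Relative to the 75th percentile, calponin 1 and enteric actin were 9.14 to 23.1 times lower on the clone arrays. With no scaling, clones 2 and 3 differed from control by log2 −2.99 and −2.37 for Cnn1, and −2.40 and −2.19 for Actg2. For both genes the mean of the clones stayed lower under all 15 alternatives run. Vascular smooth muscle actin and transgelin were lower when arrays were scaled to their 75th percentile or median, with near-equal intensities on the scanner. With the 75th percentile scaling, caldesmon, the probes of tropomyosin 1 and Srf scattered on both sides of control, and Myh11 was at background. Since RNA came from whole cultures, fewer cells with a transcript and less of it per cell cannot be told apart.

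Cnn1 encodes calponin 1, a thin filament protein that restrains myosin and is a marker of differentiated smooth muscle. Its probe (A_51_P350817) read 2.93 and 1.57 in control, −2.19 and −2.37 for the pair labelled clone 2 and −1.04 and −1.21 for the pair labelled clone 3. All 4 clone arrays lay below both controls, and the controls differed from each other more than the replicate arrays of either clone did. The processed intensities of Cnn1 were 2479 and 1080 in control, 231 and 183.9 for the pair labelled clone 2 and 277.5 and 359.3 for the pair labelled clone 3, so the order held with no scaling at all. Against control, Cnn1 was 23.1-fold lower on the arrays labelled clone 2 (log2 difference −4.53, SE 0.48) and 10.4-fold lower on those labelled clone 3 (−3.38, SE 0.48). The median probe was at −0.72 and −0.41 in these comparisons, which leaves Cnn1 at −3.81 and −2.96 relative to it. After quantile normalization Cnn1 read 11.69 and 10.77 in control against 6.92 to 8.29 on the clone arrays. Without shControl replicate 1 the log2 difference of the mean of the clones went from −3.95 to −3.27, and without shControl replicate 2 to −4.64.

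Actg2, the actin of visceral smooth muscle, followed Cnn1. Its probe (A_55_P1963807) read 6.10 and 5.02 in control, 1.71 and 1.53 for the pair labelled clone 2 and 2.42 and 2.33 for the pair labelled clone 3. No clone array came within 2 log2 units of either control. The intensities were 22280 and 11820 in control, 3441 and 2733 for clone 2 and 3038 and 4169 for clone 3. Actg2 was 15.4-fold lower on the arrays labelled clone 2 (−3.95, SE 0.43) and 9.14-fold lower on those labelled clone 3 (−3.19, SE 0.43). After quantile normalization the difference of the mean of the clones was −2.88, and with no scaling −2.30.

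Acta2, the actin of vascular smooth muscle and myofibroblasts, gave another picture. Relative to the 75th percentile it read 9.06 and 9.08 in control, 7.67 and 7.74 for the pair labelled clone 2 and 8.25 and 7.82 for the pair labelled clone 3, with no overlap between control and clones. Its processed intensities were 174100 and 197200 in control, 214800 and 202900 for clone 2 and 174200 and 189200 for clone 3, and there the groups overlapped. The log2 difference of the mean of the clones was −1.20 (SE 0.29) on the first scale, 0.03 after quantile normalization and 0.07 with no scaling, so its direction turned with the scaling. The probe (A_52_P420504) is printed 10 times on each array, and the log2 SD between its spots was 0.099 to 0.135 within an array. No spot was saturated.

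Tagln encodes transgelin, an actin-bundling protein that is an early marker of smooth muscle, and behaved like Acta2. Its probe (A_51_P450527) read 8.86 and 8.97 in control, 7.45 and 7.55 for the pair labelled clone 2 and 8.02 and 7.45 for the pair labelled clone 3. Its intensities, 150600 and 181800 in control, 184100 and 177500 for clone 2 and 147600 and 145900 for clone 3, gave a log2 difference of −0.02 for the mean of the clones with no scaling. After quantile normalization that difference was −0.06, against −1.30 (SE 0.31) relative to the 75th percentile.

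The probes of Acta2 and Tagln were among the brightest on the array: their mean signals were at percentiles 99.9 and 99.8 of the probes tested. Probe brightness is not a transcript level. The difference from control did not follow it in one direction over all deciles, but deepened steadily over the brightest ones. Counted from the dimmest decile of all probes, the median log2 difference of the mean of the clones was −0.37 in the first and −0.59 in the 2nd. It shrank to −0.28 in the 7th, then went to −0.58, −0.86 and, in the brightest, −1.09. The probes of Acta2 and Tagln lie in the brightest decile. So do those of Myl9 (percentile 98.4) and the Tpm1 probes A_55_P2032192 (95.7), A_55_P2187043 (91.1) and A_55_P2187038 (90.8). Cnn1, whose probe was at percentile 60, lay far below the median of every decile.

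**Figure D2:**
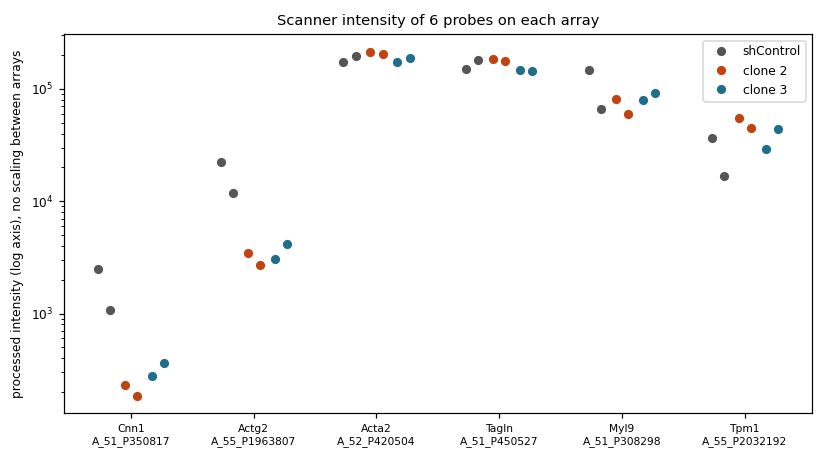
Processed intensity (log axis, arbitrary scanner units, no scaling between arrays) of 6 contractile probes on each array; points are single arrays, coloured by group. Both Cnn1 controls (2479 and 1080) lie above all clone arrays, whereas the Acta2 points of the 3 groups overlap between 174100 and 214800.

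Myl9 encodes the regulatory light chain of smooth muscle myosin, the subunit whose phosphorylation starts contraction. Its probe (A_51_P308298) read 8.83 and 7.53 in control, 6.26 and 5.99 for the pair labelled clone 2 and 7.13 and 6.79 for the pair labelled clone 3. The arrays did not overlap, although shControl replicate 2 lay nearer to clone 3 than to its own replicate. With no scaling, intensities of 147500 and 66960 in control spanned those of clone 2 (80890 and 60200) and clone 3 (79490 and 91720) nearly in full. The log2 difference of the mean of the clones was −1.64 (SE 0.41), −0.60 after quantile normalization and −0.36 with no scaling. It was −0.99 without shControl replicate 1 and −2.29 without shControl replicate 2.

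Myh11, the smooth muscle myosin heavy chain, is the most specific marker of the lineage in the set. Its probe (A_55_P1988531) was well above background on 1 of the 6 arrays, clone 3 replicate 2, where it read −5.13. Elsewhere the signal was −5.38 and −5.99 in control, −5.61 and −5.17 for clone 2 and −5.50 for clone 3. Myh11 was therefore not tested, and no fold is given for it.

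Tropomyosin 1, which winds along the actin filament and gates it, has 5 probes, designed to 4 transcript records, and they disagreed. The probe with the brightest signal (A_55_P2032192) read 6.82 and 5.52 in control, 5.72 and 5.55 for the pair labelled clone 2 and 5.67 and 5.73 for the pair labelled clone 3. Clone arrays and controls overlapped there, and the log2 difference of the mean of the clones was −0.50 (SE 0.40), 0.39 after quantile normalization and 0.15 without shControl replicate 1. A pair of probes designed to another record (A_55_P2187043 and A_55_P2187038) was lower on all 4 clone arrays. The first of them read 6.01 and 4.96 in control, 3.60 and 3.59 for clone 2 and 4.38 and 4.15 for clone 3. The differences of this pair were −1.55 (SE 0.37) and −1.48 (SE 0.37), and −0.73 and −0.64 after quantile normalization. Without shControl replicate 1 the pair was at −1.03 and −0.94. The probe A_55_P2187053 overlapped between control and clones (−0.40, SE 0.29). In the opposite direction, A_55_P2078680 read −0.40 and −0.10 in control and 0.31 to 0.74 on the clone arrays, a difference of 0.70 (SE 0.30), 0.75 after quantile normalization. With no scaling the pair was at −0.28 and −0.20 and A_55_P2078680 at 1.98, so these probes of Tpm1 differed in sign on each of the 3 scales.

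Tropomyosin 2, the β-tropomyosin of muscle, was close to background. One of its probes (A_55_P2121408) was well above background on all 4 clone arrays and on 0 of the 2 controls. It read −6.33 and −6.63 in control, −3.94 and −4.53 for the pair labelled clone 2 and −4.81 and −4.39 for the pair labelled clone 3. The lowest signals called well above background on the control arrays were −4.13 and −4.50, which lie within the range of the clone arrays, so no fold is given for the mean of the clones. The fitted difference of 2.06 became −0.50 with another background correction (normexp). The other Tpm2 probe (A_52_P315976) was well above background on 1 array, clone 3 replicate 2 (−5.12).

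Caldesmon, encoded by Cald1, binds actin, myosin and tropomyosin and inhibits the motor. Its probe A_55_P2139181 read −0.91 and −0.94 in control, −0.91 and −0.34 for the pair labelled clone 2 and −1.63 and −1.02 for the pair labelled clone 3. The second probe (A_51_P357573) read −2.50 and −1.87 in control, −1.72 and −0.71 for clone 2 and −2.86 and −1.99 for clone 3. Both probes were higher on average in clone 2 than in clone 3, with controls between them. The differences of the mean of the clones from control were −0.05 (SE 0.33) and 0.36 (SE 0.43), and −0.05 and 0.47 after quantile normalization. With no scaling, where the median of all probes was at 0.70, the Cald1 probes were at 1.22 and 1.64, and at 1.84 and 2.51 in clone 2.

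Srf is the transcription factor that the other members share as a regulator. Its probe A_51_P100289 read 2.13 and 1.56 in control, 1.61 and 1.39 for the pair labelled clone 2 and 2.29 and 2.33 for the pair labelled clone 3. Both clone 3 arrays lay above the controls, and those labelled clone 2 overlapped with them. The difference was −0.34 for clone 2 and 0.47 for clone 3, which averaged to 0.06 (SE 0.31) for the mean of the clones, and that mean was 0.41 after quantile normalization and 1.33 with no scaling. The second Srf probe (A_55_P2149540) read 2.45 and 2.30 in control, 1.50 and 1.40 for clone 2 and 1.96 and 1.56 for clone 3, all 4 clone arrays being below control. Its difference was −0.77 (SE 0.30), −0.38 after quantile normalization and 0.50 with no scaling. The 2 probes of Srf carry the same transcript record.

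**Figure D3:**
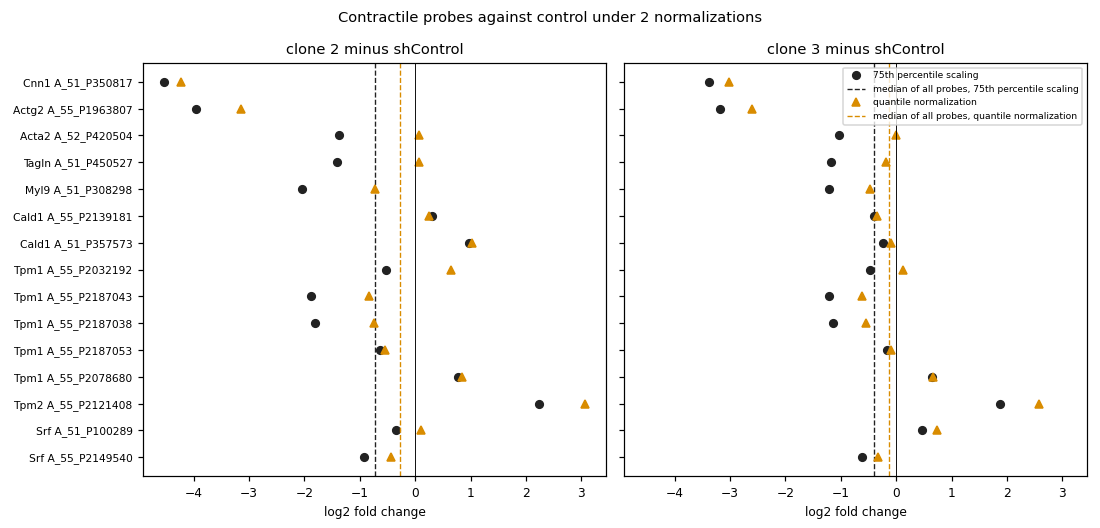
Log2 fold change of the 15 tested contractile probes against shControl, for clone 2 (left) and clone 3 (right), relative to the array's 75th percentile (circles) and after quantile normalization (triangles); dashed lines mark the median of all probes under each. Cnn1 and Actg2 stay far below both medians, while Acta2 moves from −1.37 to 0.07 in clone 2.

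Because these genes are SRF targets, the promoters were searched for the CArG box, a run of CC, 6 A or T bases and GG, which reads the same on both strands. RefSeq windows (GRCm38.p6) were at hand for 7 of the 10 genes, 8 windows in all, and the 250 bases before each start were searched. The box was present in 2 of the 8 windows, those of Myl9 and of Srf itself, against 1.47% of the 32851 windows of all genes (482). Those 2 stretches are shown, 5′ to 3′ on the gene's own strand, with the boxes in capitals. The Myl9 stretch is chr2:156775278-156775337 (plus strand), and the Srf stretch is chr17:46556190-46556269 (minus strand).
Myl9: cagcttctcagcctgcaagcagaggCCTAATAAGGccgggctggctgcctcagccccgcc
Srf: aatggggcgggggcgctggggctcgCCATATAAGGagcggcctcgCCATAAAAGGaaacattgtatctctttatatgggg
The Myl9 box lies 161 to 152 bases before the start. The Srf boxes lie 82 to 73 and 62 to 53 bases before it, and 2 or more boxes were found in 6 windows of all genes (0.0183%). The windows of Acta2, Cnn1, Cald1, Tpm1 and Tpm2 hold no such letters. Boxes with another base in the run of 6, or lying outside the 250 bases, were not searched for. Actg2, Tagln and Myh11 were not searched. A match is a description of the letters and no evidence of binding.

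In numbers, 15 of the 17 probes had enough signal to be tested, covering 9 genes. In the comparison that served to propose them, the mean of the clones minus control, limma called 1 of the 15 higher and 7 lower at an adjusted p under 0.05, where 39.4% of the 25544 probes tested were called (11.8% higher and 27.6% lower). The calls were 1 and 7 for clone 2 (43.2% of all probes called, 12.4% higher and 30.9% lower) and 1 and 2 for clone 3 (8.99%, with 4.78% higher and 4.21% lower). These comparisons share the control arrays. In each of them the 1 higher call was the Tpm2 probe A_55_P2121408. Its signal was too dim for the background mark in both controls, so the call does not measure a rise. With normexp its differences were −0.50 for the mean of the clones, −0.51 for clone 2 and −0.48 for clone 3. The median of the members was −0.77 for the mean of the clones, and −0.57 over all probes. Of the 15, 8 had all 4 clone arrays below both controls and 2 had all 4 above, where 40.3% and 14% of all probes did. Nothing is read from these counts, since the members were proposed from the same contrast.

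The clone arrays share a slide, so this comparison does not run across slides. For 0 of the 15 probes did clone 3 differ from clone 2 at an adjusted p under 0.05 (limma with Benjamini-Hochberg adjustment over all probes), whereas 475 of all probes tested did (1.86%, with 0.384% higher and 1.48% lower). That count over all probes was 0 and 71 without the first or second array of clone 3, 976 without clone 2 replicate 2, and 831 and 829 without the first or second control; with none of these did a member pass. At an unadjusted p under 0.05, 2 of the 15 passed, where 12.9% of all probes did, so the members were at the background share. One was Cnn1, which was higher on both arrays labelled clone 3, on average by 1.16 log2 units (95% interval 0.04 to 2.27, limma adjusted p = 0.379). The other was the Cald1 probe A_51_P357573, lower on both by 1.21 log2 units on average (a difference of −1.21, interval −2.37 to −0.05, limma adjusted p = 0.379). Over all probes clone 3 was higher than clone 2 by a median of 0.36, and over the 15 members by 0.34.

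In the fit over all 6 arrays the intervals of the other members span 0. For Actg2 the difference of clone 3 from clone 2 was 0.76 (−0.24 to 1.75), for Myl9 0.83 (−0.28 to 1.94), and for the Srf probe A_51_P100289 0.81 (−0.02 to 1.65). The intervals were −0.45 to 1.13 for Acta2 and −0.58 to 1.06 for Tagln. The controls enter this error, and for Cnn1 their SD was 0.96 against 0.13 and 0.12 in the clones. With the clone arrays alone the interval for Cnn1 was 0.65 to 1.66 (limma adjusted p = 0.0567), for Actg2 0.27 to 1.24 (0.0715), for Myl9 0.24 to 1.43 (0.079) and for that Srf probe 0.32 to 1.31 (0.0692), while the Cald1 probe was at −2.47 to 0.05. In that fit 6 of the 15 passed at an unadjusted p under 0.05, where 40.2% of all probes did, and 0 passed after adjustment, where 829 probes did. The signs of Acta2 and Tagln turned with the scaling, to −0.08 and −0.24 after quantile normalization. The 9 probes with both clone 3 arrays above both clone 2 arrays, and the 2 with both below, compare with 56.4% and 18.6% of all probes.

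The genes around the contractile set were taken from 4 lists and counted in the mean of both clones minus control, with the brightest tested probe of each gene. A call is therefore of 1 probe, and other tested probes of a gene can differ in sign. Among genes counted as falls, another probe was higher for Smtn (2.39 against −1.37) and Ldb3 (1.45 against −1.42). The same held for Mrtfa (2.24 against −1.34) and Tagln2 (3.57 against −1.09). For Actg1 (−1.11) the others were at 3.35, −1.27, 3.86 and 3.32. Other probes of Mrtfb, Elk3, Elk4 and Myl6 were lower too. Over all 15084 genes with a symbol, 41.1% were called by limma (11.3% higher and 29.8% lower), and their median log2 difference was −0.61. Counts of falls depended on the scaling: after quantile normalization they were 1, 4, 4 and 1 in the order given below, and with no scaling none of the 4 lists had a fall. In the same order they were 3, 5, 4 and 1 without shControl replicate 1, and 10, 11, 9 and 7 without shControl replicate 2. They were 2, 6, 3 and 2 without clone 2 replicate 1, and 2, 6, 4 and 2 without clone 2 replicate 2. Without clone 3 replicate 1 the falls were 0, 0, 1 and 0, and without clone 3 replicate 2 there were 0 in each. Rises in a list stayed between 0 and 7 with an array left out. Of the 12 genes named from the lists by the rule, 5 did not pass without shControl replicate 1 (Cnn2, Klf4, Notch3, Vcl and Zyx), 1 without clone 2 replicate 2 (Klf4), 9 without clone 3 replicate 1 and 11 without clone 3 replicate 2. None of the 12 changed sign in these fits, after quantile normalization or with no scaling, where the 4 rises passed and 0 of the 8 falls did.

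Among the other actins, tropomyosins, calponins, transgelins and myosins, 1 of 15 tested genes rose, 7 fell and 7 did not pass, with a median of −0.94. Cnn2, the calponin of non-muscle cells, read 1.41 and 3.44 in control and 4.09 to 4.56 on the clone arrays. It rose by 1.96 (SE 0.54, limma adjusted p = 0.0283), opposite to Cnn1, but by 0.94 (adjusted p = 0.061) without shControl replicate 1, while a second Cnn2 probe had a difference of 0.21 that did not pass. Myl6b, an essential myosin light chain, fell by 1.79 (SE 0.39, limma adjusted p = 0.0178). Myh9, the heavy chain of non-muscle myosin IIA and a podocyte disease gene, fell by 1.46 (SE 0.37, limma adjusted p = 0.0231), and its difference was −0.40 (adjusted p = 0.211) after quantile normalization and −0.93 without shControl replicate 1.

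Of 18 tested genes in the list of other smooth muscle genes, 1 rose, 9 fell and 8 did not pass, with a median of −1.09. Hspb6, the small heat shock protein that takes part in smooth muscle relaxation, read 6.13 and 5.00 in control, 3.30 and 3.47 for clone 2 and 4.25 and 4.02 for clone 3. It fell by 1.80 (SE 0.38, limma adjusted p = 0.0165), and was at −0.99 (adjusted p = 0.0301) after quantile normalization. Pdlim7, a PDZ and LIM domain adaptor of actin stress fibres, fell by 1.62 (SE 0.39, limma adjusted p = 0.0215) but did not pass after quantile normalization (−0.67), and was at −1.0 without shControl replicate 1. Its other probes were at −0.47 and 1.26, so Pdlim7 has no single direction. The gene that rose, Hspb8, a small heat shock protein of chaperone-assisted autophagy, was below that mark on both controls and was singled out after its values were seen.

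Marker genes, of podocytes and of other cells, also differed in this comparison, in which 29.8% of all genes were lower. Of the mesangial and pericyte genes, 2 of 5 tested were lower (Pdgfrb and Notch3), with a summed level (log2 of the summed relative signal) of 4.32 to 4.60 in control, 3.78 to 3.80 in clone 2 and 3.97 to 4.17 in clone 3, and Itga8 and Rgs5 were not tested for lack of signal. The tubular genes were lower in 3 of 3 tested (7.90 to 8.65, 5.78 to 5.88 and 6.25 to 6.82). Of 8 podocyte genes, 4 were lower (5.05 to 5.07, 4.52 to 4.54 and 3.69 to 4.40). Of 5 fibroblast genes, 2 were lower (2.38 to 2.77, 2.54 to 3.23 and 2.50 to 2.67). Striated muscle genes were lower in 1 of 5, endothelial genes in 1 of 2 and immune genes in 1 of 2. No tested gene of these 7 marker lists was higher. After quantile normalization the lower genes were 1 of 5 mesangial and pericyte (Notch3, with Pdgfrb at −0.22, adjusted p = 0.59), 2 of 3 tubular, 2 of 8 podocyte (Cd2ap at −0.24 and Synpo at −0.91 no longer passed) and 0 of 5 fibroblast genes. The counts of the other 3 lists stayed as they were, and 1 gene was higher, the mesangial and pericyte gene Mcam (0.84, limma adjusted p = 0.0417). Their part in the contractile values was not tested.

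Among SRF cofactors and regulators of smooth muscle genes, 1 of 16 tested genes rose, 8 fell and 7 did not pass, with a median of −0.71. Klf4, a repressor of the smooth muscle programme, read −2.07 and −1.23 in control, −0.01 and 0.66 for clone 2 and −0.67 and −0.74 for clone 3. Its rise was by 1.46 (SE 0.37, limma adjusted p = 0.0229), and by 1.56 (adjusted p = 0.0383) after quantile normalization. Hdac5, a class IIa histone deacetylase that represses MEF2 targets, fell by 1.95 (SE 0.34, limma adjusted p = 0.0121), and was at −1.27 (adjusted p = 0.0269) after quantile normalization. Notch3, the receptor of vascular smooth muscle and pericytes, fell by 1.49 (SE 0.36, limma adjusted p = 0.0215), or −1.37 after quantile normalization.

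The other SRF target genes were divided: 3 of 17 tested rose, 3 fell and 11 did not pass, with a median of −0.17. Actn1, the actin crosslinker α-actinin 1, read −3.40 and −2.17 in control, 0.24 and 0.14 for clone 2 and 0.13 and −0.67 for clone 3. It rose by 2.75 (SE 0.43, limma adjusted p = 0.0100), and by 2.93 after quantile normalization. Vcl, encoding the adhesion protein vinculin, rose by 1.95 (SE 0.45, limma adjusted p = 0.0189), almost wholly on the arrays labelled clone 2, and its second probe did not pass (0.78). Pdlim5, a PDZ and LIM domain scaffold of the Z disc and stress fibres, fell by 1.78 (SE 0.38, limma adjusted p = 0.0168), with other probes at 0.61 and −0.12. Zyx, the focal adhesion protein zyxin, fell by 1.33 (SE 0.33, limma adjusted p = 0.0215), but was at −0.19 (adjusted p = 0.464) after quantile normalization. Between the clones, 1 tested gene of the 4 lists was called, Vcl, where 1.56% of all genes with a symbol were.

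**Figure D4:**
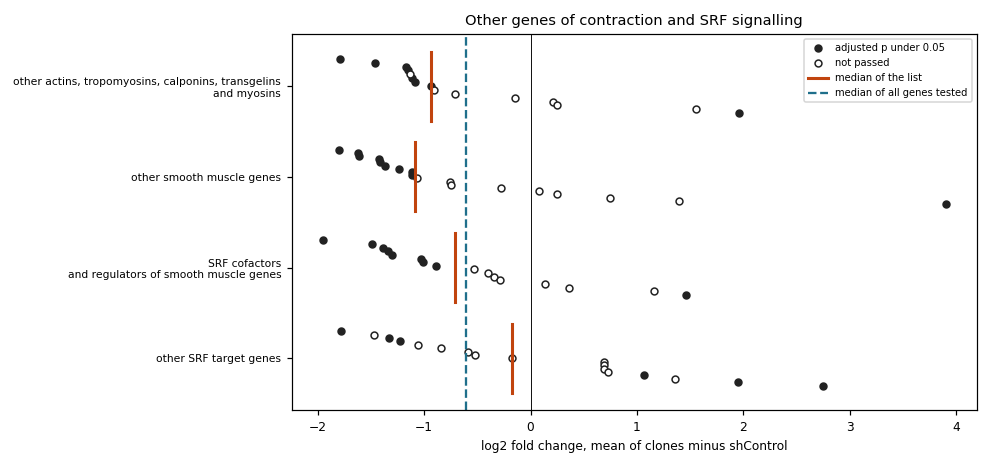
Log2 fold change of the mean of the clones minus shControl for the tested genes of the 4 lists (points; filled where the limma adjusted p is under 0.05), relative to the array's 75th percentile. Orange bars are list medians, from −1.09 to −0.17, and the dashed line is the median of all genes (−0.61).

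The genes closest to Cnn1 and to Acta2 in pattern were found among 12331 genes well above background on all 6 arrays, by the root mean square distance between mean-centred log2 profiles over these arrays. Closest to Cnn1 were the growth factor Fgf1 (distance 0.253), Actg2 (0.259), Nrip3 (0.369), Itih4 (0.459) and the glutamate transporter gene Slc1a1 (0.472). After quantile normalization these genes were still lower on the clone arrays, by log2 differences of −3.34, −2.88, −3.24, −2.74 and −2.78. Closest to Acta2 were Medag (0.032), the cyclophilin gene Ppia (0.035), Synrg (0.036), the small heat shock gene Cryab (0.043) and Zfp408 (0.044). Their quantile-normalized differences were 0.07, 0.01, 0, 0.07 and −0.05, near control like that of Acta2 itself. The neighbours of both genes were picked for likeness on these same arrays. Their shared direction on another scale was largely fixed by that choice, and nothing further is read from it.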

How the data were processed

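Gene expression was measured on 6 Agilent mouse 4x44K arrays (1 colour, Cy3), grouped and numbered by their titles. Each deposited scanner file gives 1 intensity per spot, background-subtracted and spatially detrended by Agilent Feature Extraction 11.0.1.1, per the file headers, with a small substitute value where a signal was not above background. Other columns hold the scanner's marks per spot, such as well above background. A deposited value matrix holds log2 values of 19819 probes, 14 of the member probes among them; the authors' normalization of it is not stated in the labels or files. Probes were named by transcript accession through a RefSeq list of mouse genes, which gave 27234 of them a symbol and left 12195 without.

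Values were log2 of the processed intensity minus each array's 75th percentile over gene spots. Control spots and outlier-marked spots (non-uniform or population) were dropped and replicate spots averaged. Testing needed a probe to be well above background on both arrays of 1 or more groups, which 25558 were; 14 of them lacked a value after outlier marks, and 25544 were tested. limma 3.58.1 (in R 4.3.3) fitted 3 group means over all 6 arrays (3 residual and 4.61 prior degrees of freedom), with two-sided tests and p-values adjusted over all probes by Benjamini-Hochberg (threshold 0.05). An exact test of 4 arrays against 2 cannot give a p below 0.0667 and was not used. Where all arrays of a side were too dim for that mark, a fold is only a bound, and none is given where the bound is under 1. Intervals are 95% intervals of the fit. Promoter letters came from RefSeq (GRCm38.p6) and were searched in Python 3.11.15.

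The members and lists were chosen with earlier results of these data known, and 1 further list is not reported here. Genes named were all members with every probe, up to 2 rises and 2 falls of each list past the threshold and well above background on all 6 arrays, and the 5 genes nearest to Cnn1 and to Acta2. Alternatives were quantile normalization, median scaling, normexp background correction with an offset of 50, the deposited log2 values, other filters on dim probes, 1 probe per gene, the replicate number as a block, the clone arrays alone, each array left out in turn and, added after seeing the data, no scaling between arrays. normexp used the median spot signal with the median local background, where a mean spot signal had been planned.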

Additional observations from a re-analysis of the deposited data

Results flagged for a closer look

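Vcl, encoding vinculin, differed between the clones by a test of that difference. With the deposited values 0 probes of the whole array were called in that comparison. Vcl was the only gene of the lists called there, where 1.56% of all genes with a symbol were. Its brightest probe (A_52_P190973) read −1.17 and 0.09 in control, 3.17 and 3.32 for the pair labelled clone 2 and −0.90 and 0.03 for the pair labelled clone 3, a difference of clone 3 from clone 2 of −3.68 (limma adjusted p = 0.0217). A second Vcl probe (A_66_P133244), well above background on all 6 arrays, differed from control by 0.29 in clone 2 and by 1.28 in clone 3, so the probes disagree on which clone is higher.

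Myh11, the smooth muscle myosin heavy chain, entered no test, but its probe (A_55_P1988531) was well above background on clone 3 replicate 2, at −5.13, where the controls read −5.38 and −5.99. The arrays labelled clone 2, not well above background, read −5.61 and −5.17. After quantile normalization clone 2 replicate 2, without the mark, read 4.35, and clone 3 replicate 2 read 4.18. Clone 3 replicate 2 also had the mark on 68% of all probes, against 58.2% to 63.7% on the other arrays. Groups of 2 arrays are too small to look for single outlying arrays.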

How the results depend on the processing

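Clone 3 minus clone 2 stayed short of the threshold for all 15 member probes under every alternative, and Cnn1 and Actg2 stayed lower than control under each. The cause of the changes below was not tested. Counts of probes called, at 10054 (mean of clones), 11046 (clone 2), 2297 (clone 3) and 475 (clone 3 minus clone 2), became 17092, 17722 and 7939 in the first 3 with normexp, and 6226, 6226 and, between the clones, 0 with the deposited values (2847 at an unadjusted p under 0.05). Quantile normalization gave 7055 for clone 2 and 144 between the clones. Clone 3 and the difference between clones had 978 and 260 calls with no filter, and 4703 and 1005 with no scaling. Between the clones there were 44 with the strict filter, 272 with 1 probe per gene, 829 with the clone arrays alone and 719 with the replicate number as a block. The numbers pair no samples (correlations of deviations −0.034, 0.124 and −0.091), and the block changed no member's call between the clones. Leaving out 1 array, where the lone array left in a group is taken to vary like the others, gave 718 to 16539, 4125 to 17542, 0 to 13108 and 0 to 976 calls in the same order; the lows came without a clone 3 array for 3 of these and without clone 2 replicate 1 for clone 2. Rises made up 29.9% of calls for the mean of the clones, and 48%, 14.9%, 38.3% and 98.4% with quantile, normexp, deposited and unscaled values, whose median probes were at −0.21, −0.71, −0.26 and 0.70 against −0.57. Signs turned as follows. For Acta2, quantile, deposited and unscaled values gave 0.03, 0.03 and 0.07 for the mean, 0.07, 0.08 and 0.17 for clone 2, and −0.08, −0.10 and −0.20 between the clones. For Tagln they gave 0.06, 0.05 and 0.13 for clone 2 and −0.24, −0.24 and −0.30 between the clones (−0.04 to 0.52 with 1 array left out, the low without clone 3 replicate 1). For the Tpm1 probe A_55_P2032192 they gave −0.53, −0.53 and −0.48 between the clones (−0.02 with normexp, and −0.02 to 0.15 with 1 array left out, the low without clone 2 replicate 2). The Tpm2 probe A_55_P2121408 with normexp was at −0.50 (mean), −0.51 (clone 2), −0.48 (clone 3) and 0.03 (between the clones). Between the clones, the Tpm1 probe A_55_P2078680 was at −0.34 to 0.09 with 1 array left out, the high without clone 2 replicate 1, and with no scaling A_55_P2187053 was at −0.09 and the Srf probe A_55_P2149540 at −0.23. List counts of falls ranged from 0 to 11.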
